A study of Homo sapiens with 6 samples.

Results

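The genes described here import amino acids into the cell, make serine, glycine, asparagine, proline and related amino acids, and carry serine-derived carbon units through the folate cycle. The set held 36 genes, chosen by symbol, of the 13021 gene identifiers used from the deposited table. Of these, 34 had a row in the table and 33 were listed in all 3 cell lines. SLC6A9 was listed in HCT116 and HT29 and was blank in SW480 (the smallest sum listed for a line was 21 reads). BCAT1 and CBS were not analysed here. The set was divided into 21 ATF4-driven members and 15 other members from background knowledge of ATF4 targets. The members and this division were chosen with earlier results of these data known.

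RNA was sequenced from HCT116, HT29 and SW480, established human colorectal cancer cell lines. In each line, cells had been infected with a lentivirus carrying either a short hairpin RNA (shRNA) against BZW2 or a non-targeting shRNA, and stable cells were selected with puromycin at 1 µg/ml. Control and knockdown cells of a line therefore share infection and selection. The HCT116 libraries are labelled HCT116WT and every knockdown library carries the same hairpin label, SH2. There was 1 library per line and hairpin, so each group held 3 libraries. The labels do not say whether the stable cells were pools or clones, and they give no repeat cultures of a line. Levels below are CPM, read counts relative to library size, scaled by TMM, a method that sets libraries to a common scale from genes of moderate ratio. The percent of control is the knockdown CPM over the control CPM of the same line. Its 95% interval is an exact Clopper-Pearson interval that covers counting error only, and with 1 library per line and hairpin it carries no replicate error. The log2 fold change across lines and its standard error (SE) come from limma with cell line as a term, where the 3 lines serve as replicates.

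The shallowest library, HCT116 knockdown, had 2187373 reads over listed genes, and the deepest, HT29 control, had 9317444. BZW2, the target, had 530 control and 29 knockdown reads in HCT116, 1590 and 133 in HT29, and 456 and 77 in SW480, which came to 17.3%, 8.65% and 13.3% of control (log2 fold change across lines −2.92 ± 0.40, limma adjusted p = 0.155). Of 9 colorectal epithelial markers, 6 were listed in every line (EPCAM, KRT8, KRT18, KRT19, CDH1 and CDX2), and their summed level ran from 4073 to 15435 CPM over the 6 libraries. The highest sum was in the HCT116 knockdown library, against 4073 CPM in its control. KRT20, VIL1 and LGALS4 had no values here, and of 10 markers of leukocytes, fibroblasts and endothelium only COL1A1 was listed, at up to 6.49 CPM. Ratios in HCT116 spread more widely (SD of all log2 ratios 1.58, against 0.67 in HT29 and 0.70 in SW480) and followed transcript GC content across genes, with a Spearman correlation of 0.66 in HCT116 over 11950 genes, of 0.31 in HT29 over 11409, and of −0.06 for the 12181 genes of SW480. HCT116 ratios corrected for GC content and transcript length are given for the members whose direction in HCT116 turned with the correction and for some others. Further HCT116 log2 ratios that moved far include SLC38A1 (−1.65 to −0.34), SLC25A22 (2.48 to 1.04) and ALDH1L2 (−3.79 to −2.64). Moves further down include SLC43A1 (−1.23 to −2.46), ASS1 (−1.77 to −2.79) and GOT1 (−1.06 to −1.88). No gene passed an adjusted p of 0.05 in limma over the 10875 genes tested (0% lower and 0% higher). At an unadjusted p under 0.05, 7.04% of all genes were lower and 6.59% higher.

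ATF4 is a transcription factor whose mRNA is translated more when the initiation factor eIF2 is phosphorylated, as in cells short of amino acids or under stress of the endoplasmic reticulum. Its targets include amino acid transporters, asparagine synthetase, the serine synthesis enzymes and mitochondrial folate enzymes, which together restore amino acid supply. Serine gives its side-chain carbon to folate through SHMT1 in the cytosol or SHMT2 in mitochondria, and that carbon is used to make purines and thymidylate. ATF4 pairs with C/EBP proteins at a composite element whose core can be written TGATGNAA.

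Both strands of the members' promoter windows, 250 bases before to 50 bases after each RefSeq start site (GRCh38.p14), were searched for TGATGNAA and its reverse complement TTNCATCA. Of all 35116 windows, 3.62% held a match, and of all 27305 genes 4.46% held one in at least 1 of their windows. Among the 15 ATF4-driven members with an entry, 7 had a match (ASNS, CHAC1, MTHFD1L, SLC1A4, SLC1A5, SLC3A2 and SLC7A1), in 9 of 24 windows. Of the 9, 3 are overlapping windows of MTHFD1L that hold the same site. Among 14 other members with an entry, 3 had one (GOT1, SLC38A1 and BCAT1), in 3 of 29 windows. Members had more windows each, 1.83 on average against 1.29 over all genes. SLC7A11, PSPH, SHMT2, ALDH1L2, PYCR1, GPT2 and BCAT2 had no entry. Shown first are the 250 bases before the start site of 2 ATF4-driven members that were among the lowest in every line, ASNS (chr7:97872409-97872658, minus strand) and CHAC1 (chr15:40953221-40953470, plus strand), then those of 2 cytosolic folate genes that were higher in every line, SHMT1 (chr17:18363551-18363800, minus strand) and MTHFD1 (chr14:64388103-64388352, plus strand). Each reads 5′ to 3′ along the gene, and capitals mark the match.
ASNS: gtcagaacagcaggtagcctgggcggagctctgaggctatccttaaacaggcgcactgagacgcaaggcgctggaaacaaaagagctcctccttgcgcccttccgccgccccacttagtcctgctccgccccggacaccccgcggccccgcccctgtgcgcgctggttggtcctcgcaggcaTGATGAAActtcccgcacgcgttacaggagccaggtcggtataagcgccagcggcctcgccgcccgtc
CHAC1: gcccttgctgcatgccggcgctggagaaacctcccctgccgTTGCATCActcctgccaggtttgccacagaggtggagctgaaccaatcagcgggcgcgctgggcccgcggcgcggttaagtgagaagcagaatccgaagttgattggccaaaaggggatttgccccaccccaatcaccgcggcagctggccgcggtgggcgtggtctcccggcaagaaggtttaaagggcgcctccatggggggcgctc
SHMT1: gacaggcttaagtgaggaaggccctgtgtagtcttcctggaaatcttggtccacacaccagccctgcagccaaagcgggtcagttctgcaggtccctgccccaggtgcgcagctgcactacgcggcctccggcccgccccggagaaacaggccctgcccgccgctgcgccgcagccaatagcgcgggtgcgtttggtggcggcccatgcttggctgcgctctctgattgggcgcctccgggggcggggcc
MTHFD1: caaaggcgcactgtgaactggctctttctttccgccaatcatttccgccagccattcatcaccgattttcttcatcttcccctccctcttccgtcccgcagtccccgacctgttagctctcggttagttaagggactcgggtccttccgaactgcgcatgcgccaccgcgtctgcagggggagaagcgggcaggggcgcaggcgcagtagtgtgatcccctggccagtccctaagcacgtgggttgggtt
The ASNS match begins at position −68 from the start site and the CHAC1 match, on the other strand, at −209. The SHMT1 and MTHFD1 windows held none, which says only that these letters are not there. A match did not go with direction throughout. The ATF4-driven members SLC38A2, PHGDH, PSAT1, MTHFD2 and CTH had an entry and no match, and were lower in every line. SLC3A2, SLC7A1, SLC1A5 and MTHFD1L had a match and were higher in HCT116. The next sites are shown in 30 bases each, for 3 transporters lower in HT29 and SW480, SLC3A2 (chr11:62881719-62881748, plus strand), SLC1A5 (chr19:46784893-46784922, minus strand) and SLC1A4 (chr2:64989381-64989410, plus strand), for the mitochondrial folate gene MTHFD1L (chr6:150866346-150866375, plus strand), and for GOT1 (chr10:99430804-99430833, minus strand), a member outside the ATF4-driven group that was lower in every line.
SLC3A2: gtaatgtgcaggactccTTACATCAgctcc
SLC1A5: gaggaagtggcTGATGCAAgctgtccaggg
SLC1A4: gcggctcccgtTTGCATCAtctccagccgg
MTHFD1L: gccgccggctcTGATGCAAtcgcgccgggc
GOT1: aattgcattggTTGCATCAttctcggcagc
A match is a run of letters and was not tested as a binding site here.

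Across the set, ATF4-driven members were mostly lower with BZW2 shRNA and other members were spread on both sides. This contrast is a description only, since the division was made with earlier results of these data known. Of 20 ATF4-driven members tested in all lines, 16 had a negative log2 fold change across lines, where 48.9% of all genes did, and of 13 other members 5 did. The median log2 fold change was −0.43 for ATF4-driven and 0.41 for other members, against 0.02 over all genes. Without HCT116 the medians were −0.83 and −0.01, and without SW480 −0.19 and 0.46. Lower in each of the 3 lines were 10 of the 20 ATF4-driven members and 5 of the 13 others (22.1% of all genes). Higher in each line were 0 of the 20 and 4 of the 13 (21.6% of all genes). No member passed an adjusted p of 0.05 in limma. By at least 1.5-fold in each line, 6 members were lower (SLC7A11, ASNS, CHAC1, CTH, ASS1 and GOT1; 4.1% of all genes) and 1 was higher (SHMT1; 3.47%). At an unadjusted p under 0.05, 6 members were lower (SLC7A11, ALDH1L2, ASNS, CHAC1, ASS1 and GOT1; 7.04% of all genes) and 3 of the 33 were higher (SHMT1, MTHFD1 and GOT2; 6.59%), the latter a share near that over all genes. In bulk RNA, fewer cells with a transcript and less of it per cell cannot be told apart.

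**Figure D1:**
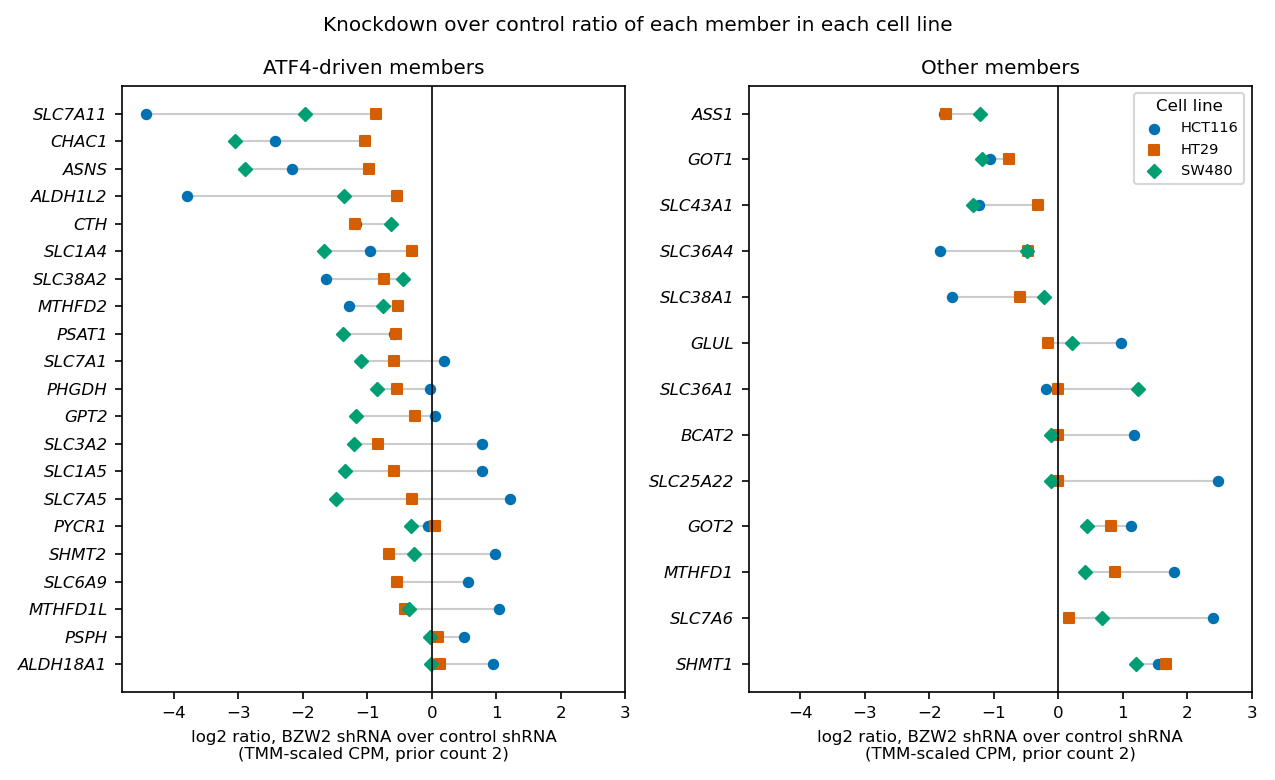
Log2 ratio of TMM-scaled CPM, BZW2 shRNA over control shRNA, for the 21 ATF4-driven members (left) and the 13 other members with a row (right), with 1 point per cell line and a grey bar from the lowest to the highest line. HT29 and SW480 points of ATF4-driven members lie mostly left of 0, while HCT116 points run from −4.42 (SLC7A11) to 1.21 (SLC7A5).

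In SW480 and HT29 nearly every ATF4-driven member was below its control, and in HCT116 about as many were above as below. In SW480 all 20 listed ATF4-driven members had a ratio below 0 (52.3% of all genes) and 0 above (47.7%), with a median log2 ratio of −1.13, and 10 of the 19 with at least 5 CPM were at least 2-fold lower (7.72% of all genes) and 0 at least 2-fold higher (4.69%). In HT29, 18 of 21 were lower (50% of all genes) with a median of −0.54, and 2 of 19 were at least 2-fold lower (6.29% of all genes) and 0 at least 2-fold higher (3.67%). In HCT116, 11 of 21 were lower (52.4% of all genes), 10 higher (47.6%), and the median was −0.03. There 7 of 21 were at least 2-fold lower (29.6% of all genes) and 2 at least 2-fold higher (26.1%). For the other members the medians were 0.97, −0.01 and −0.11 in HCT116, HT29 and SW480, respectively, so their median lay above that of the ATF4-driven members in each line. Lower in both HT29 and SW480 were 17 of 20 ATF4-driven members (31.9% of all genes) and higher in both 0 of 20 (31.6%), against 6 and 5 of the 13 other members. Without HCT116, limma placed ASNS, ASS1, CHAC1 and SLC7A11 below an adjusted p of 0.05 as lower (1.39% of all genes) and SHMT1 as higher (1.72%). DESeq2 on recovered reads of all 3 lines called the same 5 members (1.23% of all genes lower and 1.01% higher), whereas edgeR called no gene.

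Cystine import falls to a heterodimer of SLC7A11, the light chain that exchanges cystine for glutamate, and SLC3A2, the heavy chain shared with the leucine and cationic amino acid exchangers. SLC7A11 (ENSG00000151012, chromosome 4, 138164097 to 138242349, GRCh38) stood at 463, 1195 and 247 CPM in the control libraries of HCT116, HT29 and SW480 (2711, 10999 and 1265 reads) and at 21.1, 657 and 62.9 CPM in the knockdown libraries (39, 5847 and 410 reads). It was lower in every line, though the HT29 knockdown library still lay above both other controls. The knockdown level was 4.55% of control in HCT116 (95% interval 3.23 to 6.24%), 55% in HT29 (53.2 to 56.8%) and 25.5% in SW480 (22.7 to 28.5%). The fit over the 3 lines gave a log2 fold change of −2.37 ± 0.60 (SE; limma adjusted p = 0.263). It was −1.37 without HCT116 and −1.36 with correction for GC content and length, the transcript having a GC content of 35.4%. In HT29 that correction moved the log2 ratio of SLC7A11 from −0.86 to −0.14. SLC3A2 was at 171% of control in HCT116 (161 to 182%), 56.2% in HT29 (54.0 to 58.5%) and 43.3% in SW480 (40.4 to 46.4%). Its HCT116 log2 ratio turned from 0.78 to −0.31 with GC and length correction, so that after correction it was lower in all 3 lines.

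Leucine and other large neutral amino acids enter through SLC7A5, also paired with SLC3A2, with SLC7A6 and SLC43A1 as further carriers. SLC7A5 (ENSG00000103257, chromosome 16, 87830023 to 87869488) stood at 198, 156 and 162 CPM in the HCT116, HT29 and SW480 controls (1159, 1438 and 832 reads) and at 459, 126 and 57.5 CPM after knockdown (849, 1121 and 375 reads). The 3 controls lay close together while the knockdown libraries spread on both sides of them. It was at 232% of control in HCT116 (212 to 254%), 80.6% in HT29 (74.5 to 87.2%) and 35.4% in SW480 (31.3 to 40.1%), with a log2 fold change across lines of −0.14 ± 0.50 (limma adjusted p = 0.895), which was 0.50 without SW480. SLC7A6, a carrier that exchanges cationic for neutral amino acids, was higher in each line, at 539%, 113% and 161% of control, and the HT29 interval of 94.4 to 135% spans equality. Its log2 fold change across lines was 1.14 ± 0.51, and 0.47 without HCT116. SLC43A1, a carrier without a heavy chain, was lower in each line, at 40.1%, 80.5% and 37.4%, from 71, 551 and 40 control reads. SLC7A1, the main carrier of arginine and lysine, was at 114% of control in HCT116 (98.1 to 133%), 66.5% in HT29 and 46.6% in SW480, and its HCT116 log2 ratio turned from 0.19 to −0.16 with the correction.

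Of the carriers of small neutral amino acids, SLC38A2, SLC38A1 and SLC1A4 were lower in each line. SLC38A2, the sodium-coupled carrier that adapts to amino acid shortage, was at 31.9%, 60.0% and 73.1% of control in HCT116, HT29 and SW480. SLC38A1, its close relative outside the ATF4-driven group, was at 31.9%, 66.5% and 86.2%. The log2 ratio of SLC38A1 differed from that of SLC38A2 by 0.13 ± 0.12 (SD, n = 3 lines; exact sign-flip permutation test, two-sided, p = 0.50). SLC1A4, which carries alanine, serine and cysteine, was at 50.4%, 81.1% and 30.4% of control. The glutamine carrier SLC1A5 was at 171% in HCT116 (152 to 193%), 66.8% in HT29 and 39.4% in SW480. With the correction its HCT116 log2 ratio turned from 0.77 to −0.63, which is lower in all 3 lines. The glycine carrier SLC6A9 had 29 control and 14 knockdown reads in HCT116 and 37 and 24 in HT29, and both intervals spanned 100%. Its HCT116 log2 ratio turned from 0.56 to −0.77 with the correction. Transporters of organelles showed no shared direction, with the lysosomal SLC36A1 at 87.2%, 100% and 246% of control, the related SLC36A4 at 26.9%, 72.1% and 71.3% (HCT116 log2 ratio −1.84, corrected 0.08), and the mitochondrial glutamate carrier SLC25A22 at 573%, 100% and 92.0%. The HT29 log2 ratio of SLC36A4 also turned with the correction, from −0.46 to 0.22.

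ASNS, which makes asparagine from aspartate and glutamine, was among the lowest members in each line. ASNS (ENSG00000070669, chromosome 7, 97852118 to 97872542) stood at 523, 685 and 448 CPM in the HCT116, HT29 and SW480 controls (3063, 6307 and 2296 reads) and at 116, 349 and 60.2 CPM after knockdown (214, 3106 and 392 reads), so the 2 groups of libraries did not overlap. Here and below, the share of all genes without such overlap is not given. Whether the lack of overlap sets these members apart from other genes therefore cannot be said. ASNS was at 22.1% of control in HCT116 (19.2 to 25.4%), 50.9% in HT29 (48.8 to 53.2%) and 13.4% in SW480 (12 to 15%). The log2 fold change was −1.96 ± 0.43 (limma adjusted p = 0.25), −1.89 without HCT116 and −2.0 with GC and length correction. ASS1, which joins citrulline and aspartate on the way to arginine, belongs to the other members. ASS1 (ENSG00000130707, chromosome 9, 130444929 to 130501274) stood at 313, 387 and 240 CPM in the controls (1830, 3561 and 1232 reads) and at 91.4, 115 and 103 CPM in the knockdown libraries (169, 1028 and 673 reads), again without overlap. Its ratios were close over the lines, at 29.2% (24.8 to 34.2%), 29.9% (27.8 to 32.0%) and 43.0% (39.1 to 47.2%), for a log2 fold change of −1.52 ± 0.35 (limma adjusted p = 0.259) and −1.44 without HCT116. ASS1 has pseudogene copies, as do GLUL and PSPH, and the split of reads among copies is uncertain.

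**Figure D2:**
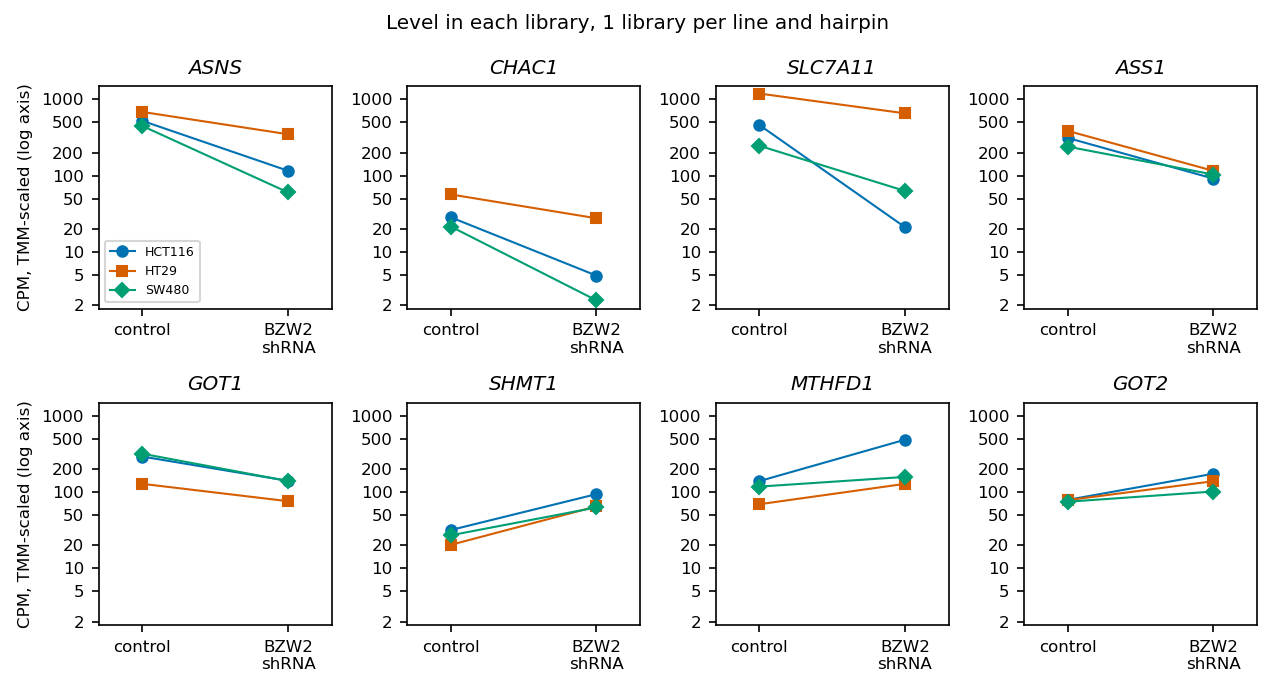
TMM-scaled CPM on a log axis in the control and BZW2 shRNA library of each cell line, for 5 members lower and 3 higher in every line, with a line joining the 2 libraries of a cell line. Control and knockdown libraries do not overlap for ASNS, ASS1, SHMT1 and GOT2, and the share of all genes without overlap is not given.

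Of the 3 enzymes that build serine from a glycolytic intermediate, PHGDH and PSAT1 were lower in HT29 and SW480, and in HCT116 their values depended on GC and length correction. PHGDH, the first step, was at 97.9% of control in HCT116 (84.6 to 113%), 68.8% in HT29 (63.5 to 74.6%) and 55.5% in SW480 (49.8 to 61.7%), and its HCT116 log2 ratio went from −0.03 to −0.79 with the correction. PSAT1, the transaminase of the pathway, was at 66.9%, 68.0% and 38.3%, with a log2 fold change of −0.78 ± 0.37 (limma adjusted p = 0.379), and its HCT116 log2 ratio turned from −0.58 to 0.22 with the correction. PSPH, the last step, was at 142% in HCT116 (110 to 181%), 107% in HT29 (97.9 to 118%) and 98.4% in SW480 (79.9 to 121%).

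SHMT1 and MTHFD1, the 2 cytosolic folate enzymes among the members, were higher in every line, and the 4 mitochondrial ones were lower in HT29 and SW480. Of 15 further genes of the folate, glycine and methionine cycles, 3 were higher (21.6% of all genes) and 3 lower (22.1%) in all lines, shares near those over all genes. With GC and length correction 6 of these 15 were higher (24.2% of all genes) and 1 lower (20.2%) in all lines. SHMT1 (ENSG00000176974, chromosome 17, 18327860 to 18363563), the cytosolic serine hydroxymethyltransferase, stood at 31.8, 20.3 and 27.1 CPM in the HCT116, HT29 and SW480 controls (186, 187 and 139 reads) and at 94.1, 64.9 and 62.9 CPM after knockdown (174, 578 and 410 reads). All 3 knockdown libraries lay above all 3 controls, at 296% (239 to 366%), 320% (271 to 379%) and 232% (191 to 283%) of control. The log2 fold change was 1.53 ± 0.38 (limma adjusted p = 0.263), 1.48 without HCT116 and 1.23 with GC and length correction. MTHFD1 (ENSG00000100714, chromosome 14, 64388031 to 64463457), the cytosolic enzyme that interconverts folate forms, stood at 139, 69.3 and 118 CPM in the controls (815, 638 and 605 reads) and at 487, 128 and 158 CPM after knockdown (900, 1142 and 1031 reads), with the HT29 knockdown library below the HCT116 control. It was at 350% (318 to 385%), 185% (168 to 204%) and 134% (121 to 148%) of control, for a log2 fold change of 1.09 ± 0.40 (limma adjusted p = 0.329; 0.70 without HCT116).

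Among the mitochondrial enzymes, MTHFD2 was lower in every line, at 41.1% of control in HCT116 (38.0 to 44.5%), 69.7% in HT29 (67.5 to 71.9%) and 59.1% in SW480 (56.3 to 61.9%), and its HCT116 log2 ratio went from −1.28 to −0.24 with the correction. SHMT2, the mitochondrial counterpart of SHMT1, was at 197%, 63.0% and 82.3%, and MTHFD1L, which releases formate from mitochondria, at 206%, 74.9% and 77.9%. In HCT116 the log2 ratio of SHMT2 turned from 0.98 to −0.17 with GC and length correction, which is lower in all 3 lines, and that of MTHFD1L went from 1.04 to 0.40. ALDH1L2, a mitochondrial enzyme that oxidises formyl folate, was a low gene, at 6.66, 1.41 and 4.49 CPM in the controls and 0, 0.899 and 1.53 CPM after knockdown. Its 39 control reads in HCT116 stood against 0 knockdown reads, which is at least 4.11-fold lower when 0 is set to a per-library floor of 3 reads, while the counting interval reached up to 31.4% of control. In HT29 13 control and 8 knockdown reads gave an interval of 22.9 to 166%, and in SW480 23 and 10 reads gave 14.5 to 74.7%. The fitted log2 fold change of −2.15 ± 0.80 (limma adjusted p = 0.335) depends on the pseudocount and was −0.98 without HCT116. With ALDH1L2 at its bound the HCT116 median of ATF4-driven members is also −0.03, since it lies on the same side. The log2 ratio of SHMT1 exceeded that of SHMT2 by 0.57, 2.33 and 1.48 in HCT116, HT29 and SW480, a mean of 1.46 ± 0.88 (SD, n = 3). That of MTHFD1 exceeded that of MTHFD2 by 3.08, 1.41 and 1.18. With 3 lines the exact sign-flip permutation test cannot go below p = 0.25, which both pairs reached (adjusted p = 0.30 over 6 pairs of related genes).

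**Figure D3:**
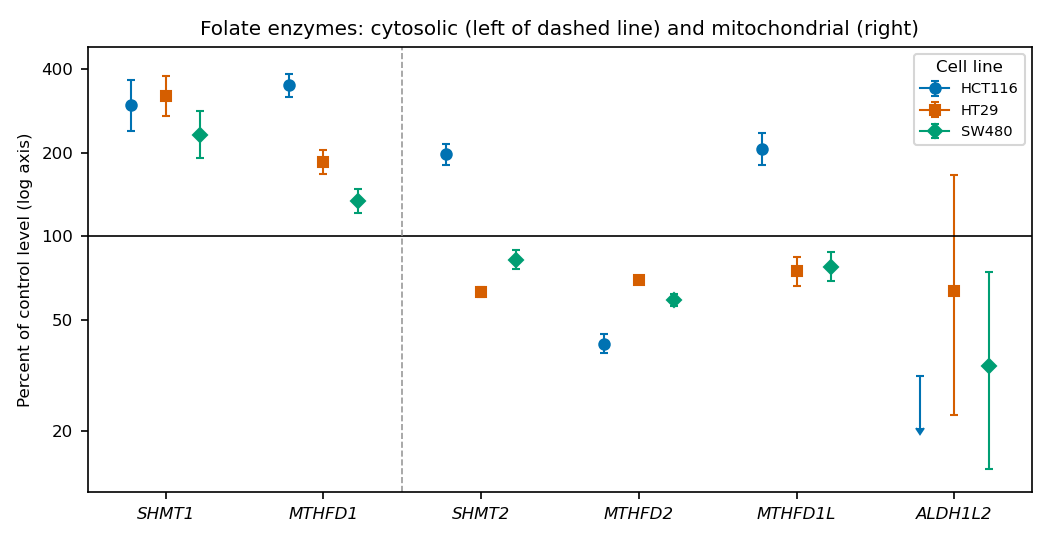
Knockdown level as percent of the control level on a log axis, for 2 cytosolic and 4 mitochondrial folate enzymes, with 1 point per cell line and 95% counting intervals. The arrow marks ALDH1L2 in HCT116, where the knockdown library had 0 reads and the interval reached up to 31.4%. SHMT1 and MTHFD1 lie above 100% in all 3 lines.

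The aspartate transaminases, which link glutamate to aspartate, went opposite ways by compartment. Cytosolic GOT1 (ENSG00000120053, chromosome 10, 99396870 to 99431569) stood at 293, 128 and 319 CPM in the HCT116, HT29 and SW480 controls (1714, 1182 and 1635 reads) and at 141, 75.9 and 140 CPM after knockdown (260, 676 and 910 reads). HT29 had the lowest level under either hairpin, and the HT29 control lay below both other knockdown libraries. GOT1 was at 48.0% (42.0 to 54.7%), 59.1% (53.7 to 65.1%) and 43.8% (40.3 to 47.5%) of control, with a log2 fold change of −0.95 ± 0.35 (limma adjusted p = 0.334). Mitochondrial GOT2 (ENSG00000125166, chromosome 16, 58707131 to 58734357) stood at 79.1, 78.3 and 74.7 CPM in the controls (463, 721 and 383 reads) and 174, 139 and 102 CPM in the knockdown libraries (322, 1237 and 663 reads), without overlap. GOT2 was at 220%, 177% and 136% of control (log2 fold change 0.86 ± 0.36, limma adjusted p = 0.359). The log2 ratio of GOT2 exceeded that of GOT1 by 2.19, 1.58 and 1.63 in HCT116, HT29 and SW480, a mean of 1.8 ± 0.34 (SD, n = 3), with p = 0.25 in the exact permutation test. For these enzymes the cytosolic transcript was the lower of the pair, the reverse of the folate enzymes.

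Apart from GPT2 in SW480, the other enzymes of glutamate-derived amino acids lay between 80.1% and 116% of control in HT29 and SW480. GPT2, the mitochondrial alanine transaminase, was at 104%, 83.3% and 44.2% of control, and its HCT116 log2 ratio turned from 0.05 to −0.79 with the correction. GLUL, glutamine synthetase, was at 197%, 89.6% and 116%, and BCAT2, the mitochondrial transaminase of branched-chain amino acids, at 230%, 99.6% and 92.6% (HCT116 log2 ratio 1.18, corrected −0.075). In the proline branch ALDH18A1, the first step, was at 194%, 109% and 99.2%, and PYCR1, the last, at 96.2%, 103% and 80.1%. Before correction PYCR1 had the smallest spread of all members over the lines, with an SD of the log2 ratio of 0.19, and a log2 fold change of −0.06 ± 0.35. With GC and length correction its log2 ratios were −1.25, −0.17 and −0.30 in HCT116, HT29 and SW480, and the log2 fold change was −0.56.

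CHAC1, which breaks down glutathione and is a marker of the ATF4 and CHOP branch of the stress response, was lower in each line. CHAC1 (ENSG00000128965, chromosome 15, 40952962 to 40956519) stood at 28.4, 56.6 and 21.5 CPM in the HCT116, HT29 and SW480 controls (166, 521 and 110 reads) and at 4.87, 27.5 and 2.30 CPM after knockdown (9, 245 and 15 reads). The HT29 knockdown library lay between the HCT116 and SW480 controls. CHAC1 was at 17.2% of control in HCT116 (7.71 to 33.4%), 48.6% in HT29 (41.6 to 56.7%) and 10.7% in SW480 (5.81 to 18.5%), with a log2 fold change of −2.16 ± 0.51 (limma adjusted p = 0.262) and −2.04 without HCT116. CTH (ENSG00000116761, chromosome 1, 70411218 to 70439851), which releases cysteine from cystathionine, stood at 19.0, 29.1 and 18.9 CPM in the controls (111, 268 and 97 reads) and 8.11, 12.7 and 12.1 CPM after knockdown (15, 113 and 79 reads), without overlap between the groups. It was at 42.8% (23.2 to 73.6%), 43.6% (34.7 to 54.5%) and 64.1% (47.0 to 87.1%) of control (log2 fold change −0.95 ± 0.44, limma adjusted p = 0.375).

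The list of regulators of the amino acid response was mostly lower. It holds ATF4, the eIF2 kinase gene EIF2AK4, and factors that pair with ATF4 or lie downstream of it. Of 9 tested, 8 had a negative log2 fold change (48.9% of all genes) and 5 were lower at an unadjusted p under 0.05 (ATF4, CEBPG, DDIT3, TRIB3 and ATF3; 7.04% of all genes), with a median of −1.10. ATF4 mRNA itself was at 27.4%, 78.9% and 42.0% of control in HCT116, HT29 and SW480 (log2 fold change −1.10 ± 0.40, limma adjusted p = 0.334). CEBPG, a C/EBP partner of ATF4, was at 15.8%, 52.6% and 48.2%, and TRIB3, an ATF4 target that restrains the response, at 51.1%, 43.0% and 19.3%. For ATF4, ASNS and CHAC1 the percent of control was highest in HT29, but for TRIB3 and ATF3 it was highest in HCT116, and for CTH and SLC38A2 in SW480. DDIT3, which encodes the stress factor CHOP, was at 5.17%, 17.5% and 4.05% (−3.74 ± 0.46), and the stress factor ATF3 at 36.2%, 23.5% and 19.7% (−1.90 ± 0.40).

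Of the other genes of these pathways, 45 tested in 4 lists, the transporters were mostly higher and the other lists were spread on both sides. Among 12 transporters, 10 had a positive log2 fold change (51.1% of all genes), with a median of 0.62. In all lines 5 of them were higher (21.6% of all genes) and 1 lower (22.1%). SLC43A2, a carrier of large neutral amino acids (1.38 ± 0.52), and SLC25A15, the mitochondrial ornithine carrier (1.20 ± 0.42), were higher at an unadjusted p under 0.05 (limma adjusted p = 0.340 and 0.322). Among 15 genes of the folate, glycine and methionine cycles, 6 were negative and 2 higher at that level (6.59% of all genes). These were TYMS, thymidylate synthase, at 403%, 194% and 315% of control (1.59 ± 0.41, limma adjusted p = 0.263), and MTHFS, at 1.08 ± 0.46. Among 11 genes of glutamine, proline, arginine and aspartate metabolism, the mitochondrial arginase ARG2 was lower in each line, at 20.4%, 36.5% and 12.8% of control (−2.15 ± 0.47, limma adjusted p = 0.25). In the same list GFPT1, the first enzyme of hexosamine synthesis, was at −1.45 ± 0.42 and PYCR3, a cytosolic proline enzyme, at 1.21 ± 0.45. Among 7 genes of cysteine, glutathione and branched-chain metabolism, BCKDHB, a subunit of the branched-chain keto acid dehydrogenase, was at −0.97 ± 0.39.

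In HCT116 the ATF4-driven members that were higher had a higher median GC content than those that were lower, a split the other members did not show. The 11 ATF4-driven members that were lower there had a median transcript GC content of 43.3%, and the 10 that were higher 56.2%. Among the other members the 6 lower had a median of 51.9% and the 7 higher 50.4%. Even so, GC and length correction moved the HCT116 median log2 ratio of these other members from 0.97 to 0.08. The 7 ATF4-driven members that were higher in HCT116 and lower in both other lines (SLC3A2, SLC7A5, SLC7A1, SLC1A5, SHMT2, MTHFD1L and GPT2) had GC contents of 51.9 to 61.3%. With ratios corrected for GC content and length, 9 of 34 members changed sign in HCT116, 16 of the 21 ATF4-driven members were lower in HCT116 and the median log2 ratio there moved from −0.03 to −0.50. With that correction 15 of 20 were lower in all 3 lines (20.2% of all genes), 5 of 13 other members were, and 4 of the 13 were higher in all 3 (24.2%). SLC7A11 went from −4.42 to −2.34 in HCT116, SLC38A2 from −1.65 to −0.12 and SLC7A5 from 1.21 to 0.08, whereas ASNS stood at −2.17 and −2.16, and CHAC1, with a GC content of 62.6%, went from −2.42 to −3.63. The part of GC content, and of the lower depth of the HCT116 knockdown library, in these ratios was not tested. Scaling by library size alone moved the HCT116 median of all genes from −0.10 to −0.39 and that of ATF4-driven members from −0.03 to −0.33.

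**Figure D4:**
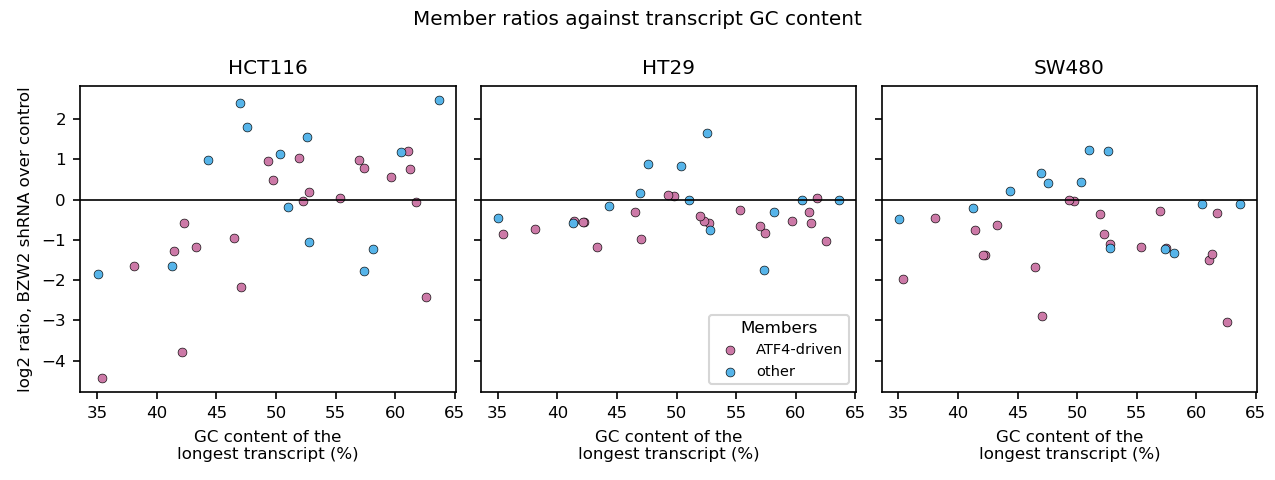
Log2 ratio, BZW2 shRNA over control, of the members against the GC content of the longest GENCODE transcript in percent, in each cell line, with ATF4-driven members in pink and other members in blue. In HCT116 the ATF4-driven members of low GC content lie below 0, CHAC1 at 62.6% GC also lies low, and in SW480 the ATF4-driven members lie below 0 over the whole range of GC content.

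Control levels also differed between the lines. Per kilobase of the longest transcript, the same 4 members stood highest in each control library. They were SLC38A2, SLC3A2, ASNS and MTHFD2, at 283, 223, 222 and 205 CPM per kb in HCT116, 224, 337, 291 and 234 in HT29, and 255, 207, 190 and 175 in SW480. ALDH1L2 stood lowest, at 0.883, 0.187 and 0.595 CPM per kb. HT29 had the highest control level of several carriers, with SLC7A1 at 448 CPM against 111 in HCT116 and 81.0 in SW480, SLC1A5 at 522 against 138 and 172, and SLC43A1 at 59.8 against 12.1 and 7.80. GPT2 was likewise at 284 CPM in HT29 against 50.6 and 64.6. With 1 control library per line these differences have no replicate check. In HT29 the counting interval lay below 100% for 16 of 21 ATF4-driven members (31.3% of all genes) and above it for 1 (30.5%). In SW480 it lay below for 18 of 20 (29.5% of all genes) and above for 0 (27.8%), and in HCT116 it lay below for 9 of 21 (39.6% of all genes) and above for 7 (36.7%).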

How the data were processed

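RNA was sequenced in 6 libraries, 3 control and 3 BZW2 shRNA, 1 of each per cell line. The genome GRCh38 and the programs STAR 2.5.2b, bcl2fastq 2.17 and DESeq are listed in the submitters' processing notes. Which counter and annotation were used, and whether reads were strand-specific, was not given in the sources used here. The deposited table holds a normalised signal per gene, read counts divided by a size factor that the authors set within each line (from the values: the factors of a line multiply to 1), and the smallest sum listed for a line was 21 reads. Of 13040 identifiers, 19 on repeated rows were left out. Dividing by the step of each column returned whole reads for 100% of values (tolerance 0.1 read); in the SW480 control the smallest value stood for 2 reads.

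The test across lines was limma 3.58.1 (R 4.3.3) on log2 of the deposited value plus 1, with cell line and treatment as terms, over 10875 genes listed in all lines with a value of at least 1 in 3 libraries (0 removed), two-sided, Benjamini-Hochberg adjusted p under 0.05. It had 2 residual and 7.26 prior degrees of freedom. Such fold changes understate low genes. Within a line, log2 ratios are of TMM-scaled CPM with a prior count of 2 (edgeR 4.0.16), without a test. The pairing is by cell line: after removal of group means the libraries of a line correlated at 0.28 (HCT116), 0.75 (HT29) and 0.45 (SW480), although the HCT116 control correlated more with the SW480 knockdown (0.38). Length and GC content are of the longest GENCODE 29 transcript. Alternatives covered pseudocount, filter, scaling, block, GC and length correction, edgeR, DESeq2 1.42.0 and leaving out each line.

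Members, lists and the ATF4-driven division were chosen with earlier results of these data known. Every member is named; library values are given for members with an unadjusted p under 0.05, at least 1.5-fold the same way in all lines, or at least 2-fold in opposite ways in 2 lines. Of other pathway genes those with an unadjusted p under 0.05 are named.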

Additional observations from a re-analysis of the deposited data

Results flagged for a closer look

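SLC7A5 differed between cell lines: HCT116 had a log2 ratio of 1.21, HT29 one of −0.31 and SW480 one of −1.49, so it was at least 2-fold higher in 1 line and at least 2-fold lower in another. With 1 library per line and hairpin the difference between the lines was not tested. With correction for GC content and length the HCT116 value was 0.08.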

How the results depend on the processing

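With 1 library per line and hairpin, no within-line difference has a replicate check. Genes past the threshold, 0 lower and 0 higher in limma (766 and 717 at an unadjusted p under 0.05), came to 134 and 110 with DESeq2 and ranged from 27 to 151 lower and from 30 to 187 higher with a line left out, where fewer libraries set the spread. Without the cell line as a replicate block both counts were 0, with 191 genes at an unadjusted p under 0.05, and with edgeR both were 0, with 1287. BZW2 passed the threshold with DESeq2 (−2.99), and in limma without HCT116 or without SW480 but not without HT29. Its log2 fold change ranged from −3.16 to −2.64 with a line left out. Members lower in every line, 15 in all, were 15 to 23 among the remaining lines with a line left out, and members higher in every line, 4, were 5 to 7; the latter were 6 with the authors' size factors or library size scaling. With a line left out, the median of ATF4-driven members, −0.43, ranged from −0.83 (without HCT116) to −0.19 (without SW480), and that of the other members, 0.41, from −0.01 (without HCT116) to 0.60 (without HT29). The difference between the medians, −0.84, ranged from −1.05 to −0.65 with a line left out and was −1.41 with the wide ATF4-driven list. Of 428 fits of single members, 402 kept direction and side of the threshold, 12 passed it and 14 changed sign. With a line left out, log2 fold changes that changed sign ranged from −0.97 to 0.026 for SLC3A2, −0.86 to 0.50 for SLC7A5, −0.92 to 0.15 for SLC1A5, −0.044 to 0.68 for SLC36A1, −0.12 to 0.048 for PYCR1, −0.014 to 1.3 for SLC25A22, −0.43 to 0.41 for SHMT2, −0.34 to 0.40 for MTHFD1L and −0.013 to 0.64 for BCAT2. With GC and length correction they were 0.022 for SLC36A4, −0.36 for SHMT2, −0.087 for MTHFD1L and −0.10 for BCAT2, and with library size scaling −0.062 for SHMT2. The cause was not tested.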
